A study of Mus musculus with 6 samples.

Results

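The 40 genes described here carry out or control antigen presentation: 21 genes of the MHC class I pathway, 9 of the class II pathway, 4 costimulatory or checkpoint ligands and receptors, 2 endosomal processing enzymes, 2 genes that present lipids or metabolites and 2 interferon regulatory factors. They were chosen by symbol from the 55487 genes in the count tables, and all 40 had a row. Their transcripts were measured by bulk RNA-sequencing in 6 cultures of primary cortical microglia from CAG::CreERT2;Nr1d1fl/fl pups, 3 Cre− and 3 Cre+. Both groups carry the floxed Nr1d1 alleles, Nr1d1 being the gene of the circadian repressor REV-ERBα, and both received 1.5 μM 4-hydroxytamoxifen (4-OHT) for 2 days, so the groups differ in the presence of the tamoxifen-activated Cre recombinase. This exposure is that of the labels, and the methods of the study give a shorter one. The CAG promoter is active in all cell types, there were no cultures without 4-OHT and none with Cre on unfloxed alleles, and a Cre effect and an Nr1d1 deletion effect cannot be told apart. The pups were taken in the first days after birth, and the microglia came off mixed glial cultures. No label ties a culture to 1 animal or litter, so p-values measure the spread between these 6 samples.

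Class I molecules are a heavy chain, in mice mainly H2-K and H2-D, paired with β2-microglobulin. Their peptides are cut in the cytosol by the proteasome, carried into the endoplasmic reticulum by the TAP transporter, trimmed by ERAP1 and loaded with the help of tapasin, and the complexes are shown to CD8 T cells. Class II molecules are pairs of α and β chains that present peptides from endosomes to CD4 T cells, with the invariant chain CD74 and H2-DM guiding the loading and CIITA switching the genes on. Resting microglia express little class II and raise both classes under interferon-γ.

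Sequencing depth was similar in all libraries, with 87545868 to 93942161 counts on genes in Cre− and 93701215 to 110909129 in Cre+ cultures. A gene was tested where it exceeded 1 CPM, the count scaled to the library total, in at least 4 libraries, which 11429 genes did, and 579 of them passed the edgeR quasi-likelihood test at an adjusted p of 0.05 (317 to 448 without 1 library). The targeted gene, Nr1d1, stood at 2.35, 1.2 and 1.64 CPM in Cre− and at 1.00, 0.945 and 1.08 CPM in Cre+ cultures. Every Cre+ value lay below every Cre− value, but the log2 fold change of −0.77 (SE 0.25) did not pass (edgeR adjusted p = 0.0945). Without Cre− replicate 2 it was −0.98 and passed (adjusted p = 0.0414, in a range of 0.0414 to 0.313 over all settings). This gene count also takes reads from exons outside the floxed part. The microglial markers Csf1r and Trem2 were at 466 and 1614 CPM in Cre− cultures, whereas P2ry12 was at 0.611 CPM and Tmem119 at 2.95 CPM. Cre+ libraries held fewer genes with any count, 29941 to 30677 against 32587 to 35166, and 80.7% of the 7728 genes between 0.05 and 0.2 CPM were lower in Cre+ cultures, against 46.9% of the 8446 genes at 5 CPM or more. This shift touches the members of very low level and is given again beside them.

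The proximal promoters of the classical class I genes hold the elements through which cytokines are known to act on them, and they are shown here because H2-K1 and H2-D1 are the class I members that changed. The sequences are from the RefSeq promoter table for build GRCm38.p6 and cover the 180 bases before the annotated start, for H2-K1 before the more downstream of its 2 starts. The windows are chr17:34000334-34000513 on the minus strand for H2-K1, chr17:35262914-35263093 on the plus strand for H2-D1, chr2:122147507-122147686 on the plus strand for B2m, chr17:36032702-36032881 on the minus strand for H2-T23 and chr17:34287824-34288003 on the minus strand for H2-Aa. Capitals mark an NF-κB site (GGGA and CC with any 4 bases between them), an interferon-stimulated response element (ISRE, GAAA and GAAA with any 2 bases between them) or the shorter core AANNGAAAC, the Y box of the MHC enhanceosome (GATTGG) and the REV-ERB response element (TAGGTCA), on either strand. The core was added to the search after the class I promoters had been read.
H2-K1: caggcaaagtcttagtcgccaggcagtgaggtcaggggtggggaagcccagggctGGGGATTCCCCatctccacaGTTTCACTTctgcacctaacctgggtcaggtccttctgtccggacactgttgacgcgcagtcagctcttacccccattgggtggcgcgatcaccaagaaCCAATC
H2-D1: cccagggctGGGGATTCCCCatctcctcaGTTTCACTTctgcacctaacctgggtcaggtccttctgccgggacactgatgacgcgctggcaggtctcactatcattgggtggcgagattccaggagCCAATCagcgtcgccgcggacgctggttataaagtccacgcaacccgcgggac
B2m: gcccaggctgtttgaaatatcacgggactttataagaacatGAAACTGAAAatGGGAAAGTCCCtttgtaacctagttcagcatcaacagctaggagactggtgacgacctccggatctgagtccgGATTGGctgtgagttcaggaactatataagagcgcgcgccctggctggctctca
H2-T23: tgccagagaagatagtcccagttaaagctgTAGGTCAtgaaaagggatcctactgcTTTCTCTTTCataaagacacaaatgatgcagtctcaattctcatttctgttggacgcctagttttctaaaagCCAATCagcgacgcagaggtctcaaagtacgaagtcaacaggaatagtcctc
H2-Aa: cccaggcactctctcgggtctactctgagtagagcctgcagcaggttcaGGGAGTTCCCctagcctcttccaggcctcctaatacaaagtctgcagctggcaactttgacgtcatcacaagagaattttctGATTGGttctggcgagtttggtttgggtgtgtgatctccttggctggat

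The stretch from the NF-κB site to the Y box was the same at 109 of 125 aligned positions in H2-K1 and H2-D1 (87.2%). Both hold, in the same order, the NF-κB site, the ISRE core that overlaps none of the other matches, and the Y box. This order is not particular to them. It was also found in H2-Q4, H2-Q6, H2-Q7 and H2-T22, none of which passed the edgeR test. In B2m the full ISRE stands next to the NF-κB site, and the class II promoter of H2-Aa holds the Y box and an NF-κB site without an ISRE match. RefSeq promoters of 300 bases, from 250 before to 50 after the start, were matched for 30 of the 40 members (36 promoters). Tap2, Tapbpl, Nlrc5, H2-T24, H2-Ab1, Cd74, Ciita, Cd40, Cd86 and Cd1d1 had no entry. The Y box was found in 9 of 10 promoters of class I chains and 5 of 6 of class II chains and chaperones, against 16.1% of 32851 promoters. The NF-κB site was in 9 of 10 promoters of class I chains (20.7% of all promoters), the ISRE core in 8 of 10 (5.77%) and the full ISRE in 3 of 10 (3.44%). These 10 promoters belong to 9 genes, as H2-K1 enters with both of its starts. By gene the counts were 8 of 9 for the Y box and for the NF-κB site, 7 of 9 for the core and 3 of 9 for the full ISRE. The core was added after these promoters had been read, so its share is no separate evidence. The interferon-γ activated site TTCNNNGAA was in 5 of the 36 member promoters (8.30% of all), among them Irf1, Irf8 and Psmb8. The REV-ERB response element was in 1 of the 36, that of H2-T23 (2.61% of all). A match is a run of letters, and binding was not measured.

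B2m and the classical class I heavy chains were among the most abundant transcripts in these cells, and the class II chains were near the filter on low counts. Levels of different genes are compared as FPKM, the CPM divided by exon length in kilobases. In Cre− cultures B2m stood at 3772 ± 150 FPKM (SD, n = 3) and ranked 13 of the 11429 tested genes, H2-D1 stood at 2511 ± 53.9 FPKM and ranked 21, and the lysosomal protease Lgmn stood at 1402 ± 19.9 FPKM and ranked 34. H2-K1 was at 292 ± 11 FPKM, ranking 166, so that H2-D1 exceeded it 8.60-fold ± 0.137 in Cre− and 8.44-fold ± 0.130 in Cre+ cultures. Other class I genes were far lower, with H2-T24 at 1.18 ± 0.176 FPKM, H2-Q7 at 1.06 ± 0.126 FPKM and Nlrc5 at 0.412 ± 0.118 FPKM. The class II chains H2-Aa, H2-Ab1 and H2-Eb1 were at 0.496 ± 0.267, 0.759 ± 0.349 and 0.632 ± 0.316 FPKM, and Ciita at 0.0328 ± 0.0113 FPKM. H2-K1 and H2-D1 together exceeded the 3 class II chains 1010-fold to 2256-fold in Cre− and 1485-fold to 2020-fold in Cre+ cultures. Among the class II chaperones Cd74 was at 15.8 ± 1.93 FPKM, H2-DMb1 at 31.7 ± 2.36 FPKM and H2-DMa at 4.67 ± 0.521 FPKM, whereas H2-DMb2, at 1.04 ± 0.0234 FPKM, was close to the class II chains.

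**Figure D1:**
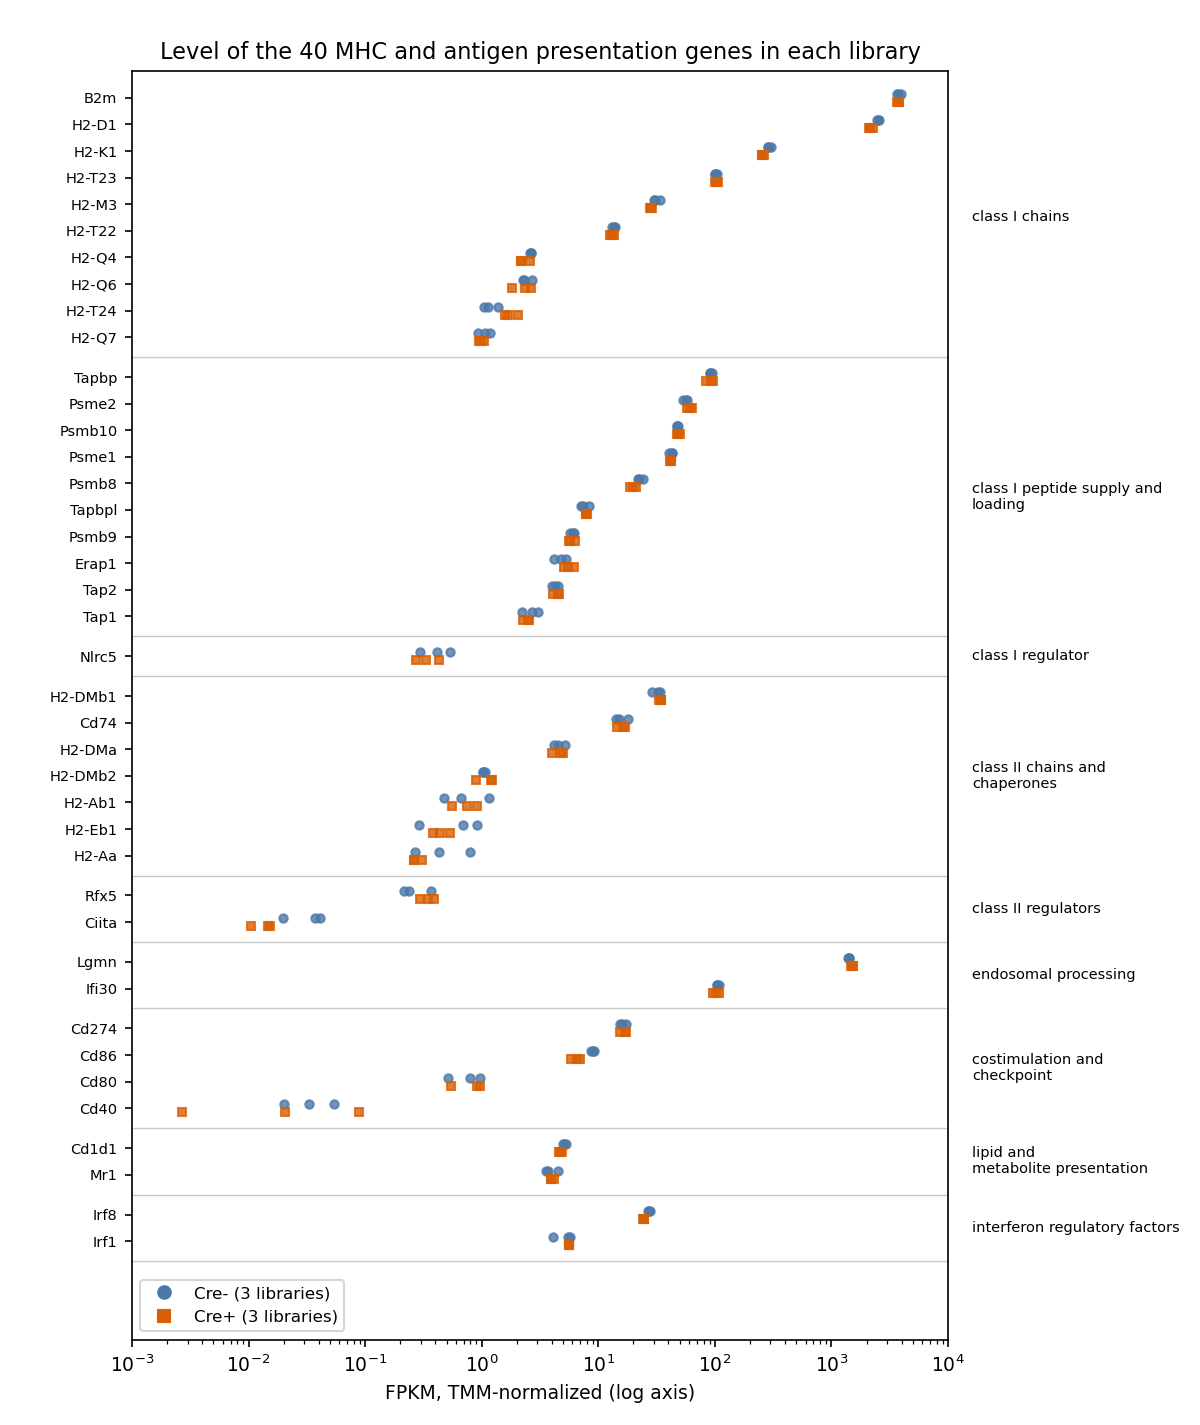
Level of each of the 40 members in each library, in FPKM with TMM-normalized library sizes on a log axis, grouped by role and ordered by the Cre− mean. Circles are the 3 Cre− and squares the 3 Cre+ libraries. B2m, H2-D1 and Lgmn are the 3 highest, and the class II chains, Ciita and Cd40 lie near or below 1 FPKM in both groups.

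The comparison of Cre+ with Cre− cultures asks which of these genes differ between cultures with and without Cre after 4-OHT. Of the 40 members 37 could be tested, 3 of them were lower in Cre+ cultures and 0 were higher. The 3 are 8.11% of the tested members, and 5.07% of all tested genes were called (2.5% higher and 2.56% lower). They were H2-D1 and H2-K1, the classical class I heavy chains, and Cd86, the costimulatory ligand of CD28. The fold changes of 16 members were above 0 and those of 21 below, with a median of −0.02 against 0.00 over all genes tested (log2, Cre+ minus Cre−). The 3 Cre+ libraries did not overlap the 3 Cre− libraries for 10 tested members, 2 higher (H2-T24, Lgmn) and 8 lower (H2-K1, H2-D1, H2-Q4, H2-M3, Psmb8, Cd86, Cd1d1, Irf8). Over all tested genes the groups did not overlap for 24%, 12.3% higher and 11.7% lower. In bulk RNA, fewer cells of a type and less RNA per cell cannot be told apart.

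**Figure D2:**
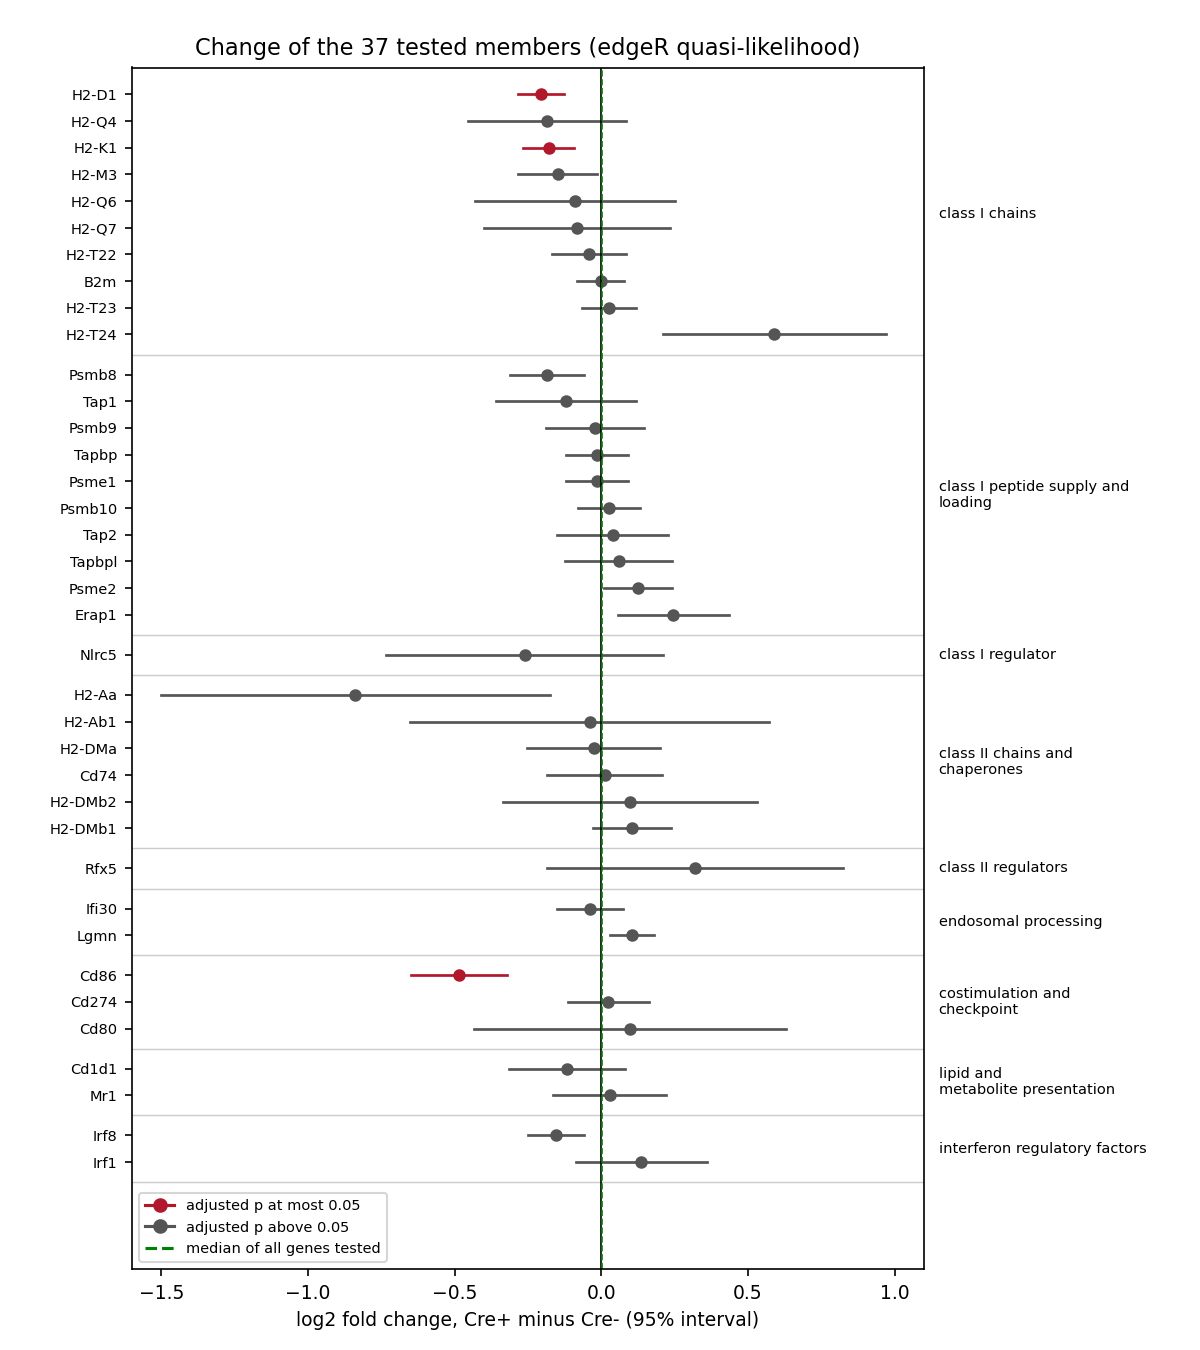
Log2 fold change (Cre+ minus Cre−) of the 37 tested members with its 95% interval from the edgeR fit, grouped by role. Red marks an adjusted p of at most 0.05, which H2-D1, H2-K1 and Cd86 reached, and the dashed line is the median of all tested genes.

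Of the 10 class I chains, 2 were called (20%), both lower, against 5.07% of all tested genes called and 2.56% called lower. So few genes do not show that the class as a whole was called more often. H2-D1 (ENSMUSG00000073411, chromosome 17, 35262730 to 35267499, GRCm38) was at 6632, 6364 and 6434 CPM in Cre− and at 5427, 5549 and 5860 CPM in Cre+ cultures. All 3 Cre+ libraries lay below all Cre− libraries, at 0.866 times the Cre− level (log2 fold change −0.21, SE 0.04, edgeR adjusted p = 0.00348). H2-K1 (ENSMUSG00000061232, chromosome 17, 33996017 to 34000347) was at 894, 832 and 848 CPM in Cre− and at 745, 748 and 780 CPM in Cre+ cultures. Its groups did not overlap either, at 0.883 times the Cre− level (log2 fold change −0.18, SE 0.04, edgeR adjusted p = 0.0189). H2-K1 lost its call without Cre− replicate 1, Cre+ replicate 1 or Cre+ replicate 2 (adjusted p = 0.0654, 0.0709 and 0.069), at log2 fold changes of −0.16 to −0.17, and under both looser count filters (0.077 and 0.386, the highest of all settings). H2-D1 kept its call without each library in turn and lost it only with no count filter (adjusted p = 0.1, in a range of 0.000119 to 0.1 over all settings). Class I genes share sequence, so reads can be assigned to the wrong one. Of the 100-base words in their transcripts, 0.957% for H2-K1 and 3.59% for H2-D1 were also found in other genes, and how the reads of these words were assigned was not tested. The summed counts of both fell by 0.20 on the log2 scale (SE 0.04, edgeR adjusted p = 0.00369), a value set mostly by H2-D1.

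For the partner of these chains no difference was detected. B2m, the light chain of all class I molecules and of CD1d, was at 3161, 3180 and 3392 CPM in Cre− and at 3168, 3264 and 3289 CPM in Cre+ cultures. The groups overlapped, and the 95% interval of the log2 fold change ran from −0.08 to 0.08. The summed heavy chains were at 2958 ± 70.3 FPKM in Cre− and 2587 ± 96.3 FPKM in Cre+ cultures. The ratio of B2m to the summed heavy chains was 1.21, 1.27 and 1.34 in Cre− and 1.47, 1.48 and 1.42 in Cre+ cultures, without overlap. Most of this sum is H2-D1, so the ratio holds the H2-D1 difference and is no separate evidence.

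**Figure D3:**
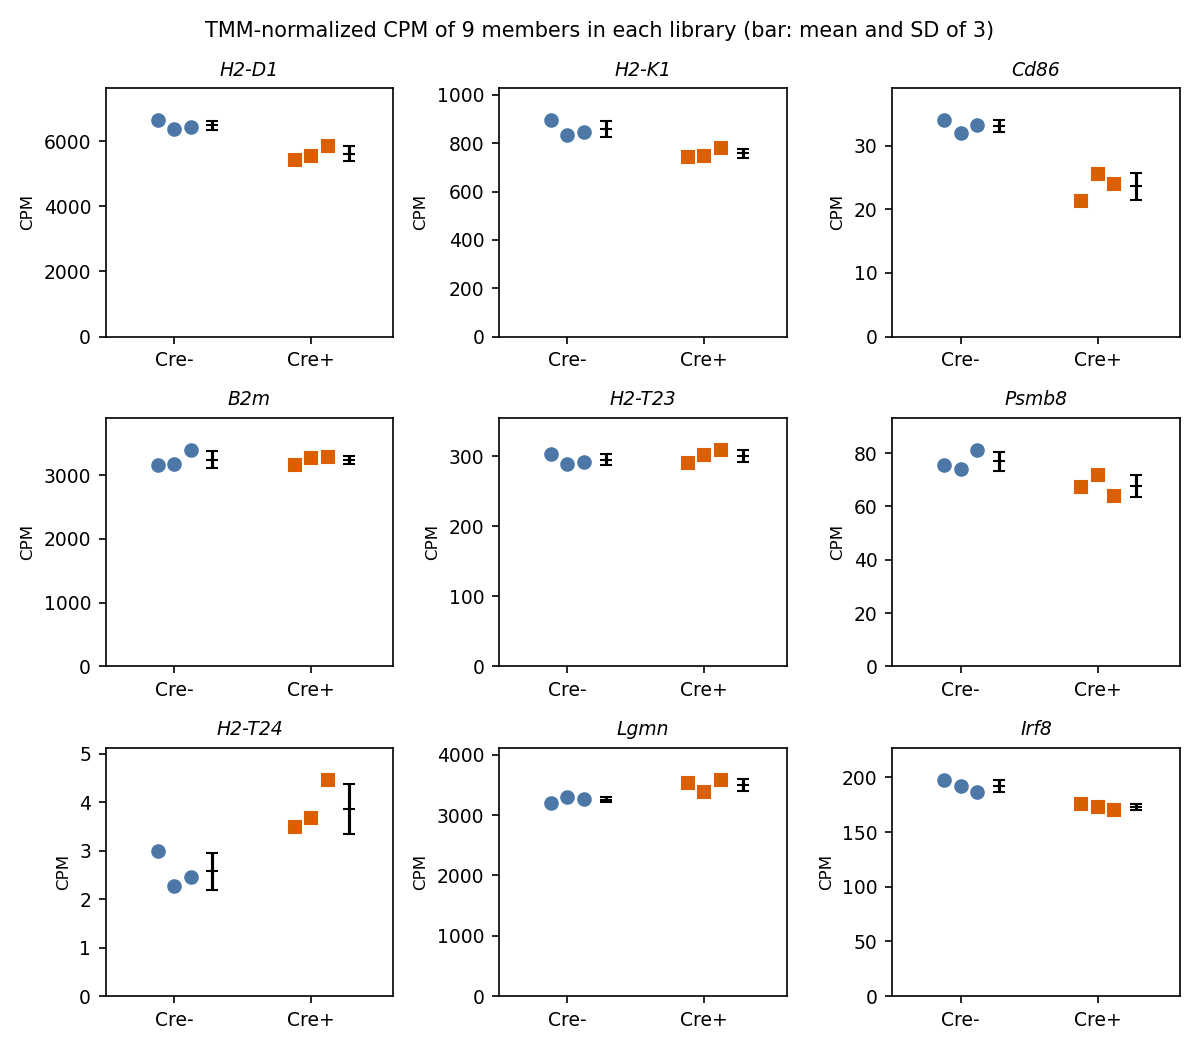
TMM-normalized CPM of 9 members in each library, with the mean and SD of the 3 libraries of each group beside the points. All vertical axes start at 0. The Cre+ points of H2-D1, H2-K1, Cd86, Psmb8 and Irf8 lie below the Cre− points, those of H2-T24 and Lgmn above, and those of B2m and H2-T23 overlap them.

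The nonclassical and less polymorphic class I chains did not share 1 direction. H2-T24, a class I gene of the T region, was at 3.00, 2.26 and 2.45 CPM in Cre− and at 3.49, 3.66 and 4.45 CPM in Cre+ cultures. It had the highest positive fold change of the tested members (log2 0.59, SE 0.18) and missed the threshold (edgeR adjusted p = 0.0729), which it passed in DESeq2 and under the 2 looser count filters (0.0104 to 0.26 over all settings). H2-M3, which presents formylated peptides, was at 48.8, 43.9 and 43.5 CPM in Cre− and at 41.7, 40.7 and 40.3 CPM in Cre+ cultures. Its groups did not overlap, and its log2 fold change was −0.15 (SE 0.06, edgeR adjusted p = 0.212). H2-T23, the Qa-1 chain that presents leader peptides to NKG2A, was at 295 ± 7.68 and 300.2 ± 8.88 CPM, with a 95% interval of −0.06 to 0.12 on the log2 scale. H2-T22, a ligand of γδ T cells, was at 46.2 ± 1.28 and 44.9 ± 1.73 CPM, and 31.5% of its 100-base words were found in other genes.

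The H2-Q genes, H2-Q4 and the Qa-2 genes H2-Q6 and H2-Q7, were low, between 4.51 and 6.82 CPM on average in Cre− cultures. Their log2 fold changes were −0.19, −0.09 and −0.08, with standard errors of 0.13, 0.16 and 0.15. These genes are close copies, and 12% to 14.1% of their words were shared with other genes, so their single values are uncertain. Not all of this sharing is between copies. For H2-Q4, 306 of the 365 shared words were shared with Gm11131, a gene on the opposite strand that overlaps 496 of its exonic bases. Summed over H2-Q6 and H2-Q7 the log2 fold change was −0.09 (SE 0.12, edgeR adjusted p = 0.762). Over the 8 H2-Q genes in the files it was −0.19 (SE 0.07, edgeR adjusted p = 0.139), with 41.6, 37.1 and 37.2 CPM in Cre− and 32.4, 35.7 and 33.3 CPM in Cre+ cultures. The groups did not overlap for this sum. In all, 8 of the 10 class I chains had a fold change below 0, with a median of −0.09.

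Peptide supply and loading for class I showed no call among 10 tested genes, with 5 fold changes above 0, 5 below and a median of 0.01. Psmb8, an interferon-inducible catalytic subunit of the immunoproteasome, came nearest, at 75.4, 74.2 and 81.1 CPM in Cre− and 67.4, 71.8 and 63.8 CPM in Cre+ cultures. Its groups did not overlap, and its log2 fold change of −0.18 (SE 0.06) missed the threshold (edgeR adjusted p = 0.0925). The other inducible subunits gave log2 fold changes of −0.02 (SE 0.08) for Psmb9 and 0.03 (SE 0.05) for Psmb10. Set against the constitutive subunit each replaces, Psmb8 to Psmb5 was 0.167 ± 0.00636 in Cre− and 0.152 ± 0.00498 in Cre+ cultures as a ratio of FPKM, without overlap. Psmb9 to Psmb6 was 0.0262 ± 0.00123 and 0.0253 ± 0.00108, and Psmb10 to Psmb7 was 4.12 ± 0.211 and 3.95 ± 0.209, both with overlap. The inducible transcript was thus the less abundant of its pair in 2 of the 3 pairs and the more abundant in that of Psmb10. The order was the same by CPM in Cre− cultures (Psmb8 76.9 and Psmb5 122.6, Psmb9 22 and Psmb6 429.7, Psmb10 81 and Psmb7 39.5). The size of each FPKM ratio depends on annotated exon lengths, such as 3381 bases for Psmb8 and 899 for Psmb5. Protein was not measured.

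The proteasome activator subunits Psme1 and Psme2 gave log2 fold changes of −0.02 (SE 0.05) and 0.12 (SE 0.05, edgeR adjusted p = 0.22). The peptide transporter subunits Tap1 and Tap2 gave −0.12 (SE 0.11) and 0.04 (SE 0.09), and the loading factors Tapbp and Tapbpl −0.02 (SE 0.05) and 0.06 (SE 0.09). Erap1, the aminopeptidase that trims peptides to length, was at 38.1, 30.5 and 34.6 CPM in Cre− and at 36.8, 40.4 and 45.2 CPM in Cre+ cultures. These values overlapped (log2 fold change 0.25, SE 0.09, edgeR adjusted p = 0.135). The library type keeps no strand, and 834 exonic bases of Erap1 overlap Cast on the other strand, as 212 do between Tap1 and Psmb9. Larger shares of exonic bases overlap other genes for Tapbp (29%), Tap2 (18.5%) and Psmb8 (14.7%), and outside this group for Rfx5 (26.8%) and Irf1 (20%). Reads in such stretches cannot be told apart. Nlrc5, the class I transactivator, was low, at 3.51, 4.50 and 2.49 CPM in Cre− and at 2.82, 2.32 and 3.62 CPM in Cre+ cultures (log2 fold change −0.26, SE 0.22, edgeR adjusted p = 0.58).

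Class II genes showed no call among the 7 tested of 9, with a median log2 fold change of 0.01. H2-Aa, the α chain of I-A, was at 3.00, 1.02 and 1.63 CPM in Cre− and at 1.16, 0.999 and 0.992 CPM in Cre+ cultures. The fold change of −0.84 on the log2 scale (SE 0.31, edgeR adjusted p = 0.148) was the most negative of the tested members and rested in large part on Cre− replicate 1. Without that library it was −0.34, and without Cre− replicate 2 it was −1.14 and passed (adjusted p = 0.031, in a range of 0.031 to 0.561 over all settings). H2-Aa passed the filter on low counts through every Cre− library, replicate 2 being only just above 1 CPM. Among the Cre+ libraries only replicate 1 exceeded it. Its place among the tested members thus leans on the group where it was higher. Of the 3165 genes between 1 and 5 CPM, 56.9% were lower in Cre+ cultures. H2-Ab1, its partner β chain, was at 2.94, 1.70 and 1.21 CPM in Cre− and at 2.32, 1.93 and 1.43 CPM in Cre+ cultures. Its log2 fold change was −0.04 (SE 0.29), which turned to 0.37 without Cre− replicate 1. H2-Eb1, the β chain of I-E, fell below the filter with 154, 52 and 121 counts in Cre− and 81, 96 and 86 counts in Cre+ libraries (exact two-sided permutation test, p = 0.4, where 3 against 3 cannot go below 0.1). For H2-Aa, H2-Ab1 and H2-Eb1, Cre− replicate 1 was the highest of the 6 libraries.

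The chaperones and the transcription factors of the class II genes were measured at unequal depth. Cd74, the invariant chain, was at 26.5 ± 3.24 and 26.7 ± 2.22 CPM, with a 95% interval of −0.18 to 0.21 on the log2 scale. The peptide exchange factor H2-DM gave log2 fold changes of −0.03 (SE 0.11) for its α chain gene H2-DMa, 0.10 (SE 0.06) for H2-DMb1 and 0.10 (SE 0.20) for H2-DMb2. H2-DMb1 and H2-DMb2 share 179 of their 100-base words, and H2-DMb2, at 1.82 CPM, is the less certain of these. Rfx5, a subunit of the factor that binds the X box of class I and class II promoters, was at 1.51 ± 0.463 and 1.88 ± 0.245 CPM (log2 fold change 0.32, SE 0.24, edgeR adjusted p = 0.518). Ciita, the class II transactivator, had 34, 33 and 17 counts in Cre− and 16, 13 and 10 counts in Cre+ libraries, and its level was 0.313 ± 0.108 and 0.128 ± 0.0254 CPM. The groups did not overlap (exact two-sided permutation test, p = 0.1, the smallest that 3 against 3 allows). Of the 3078 genes between 0.2 and 0.5 CPM, 73.9% were lower in Cre+ cultures and 26.4% were lower without overlap, so the Ciita difference has the direction of most genes of its level.

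Endosomal processing was represented by abundant transcripts. Lgmn, the asparaginyl endopeptidase legumain, was at 3206, 3297 and 3267 CPM in Cre− and at 3532, 3387 and 3579 CPM in Cre+ cultures. All Cre+ libraries lay above the Cre− libraries, by a log2 fold change of 0.10 (SE 0.04) that missed the threshold (edgeR adjusted p = 0.113). It passed with filterByExpr and with no count filter. Ifi30, the thiol reductase GILT, was at 103 ± 2.60 and 101 ± 5.74 CPM (log2 fold change −0.04, SE 0.05).

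Among the costimulatory and checkpoint genes Cd86 was the member with the lowest adjusted p of all. Cd86 (ENSMUSG00000022901, chromosome 16, 36603869 to 36666081, GRCm38) was at 34.0, 32.0 and 33.3 CPM in Cre− and at 21.4, 25.6 and 24 CPM in Cre+ cultures. The groups were well apart, at 0.714 times the Cre− level (log2 fold change −0.49, SE 0.08, edgeR adjusted p = 0.0016). It was called in all 16 settings tried, with log2 fold changes from −0.54 to −0.41. None of its 100-base words was found in another gene. Cd80, the other ligand of CD28 and CTLA-4, was lower in level and varied, at 2.92, 1.89 and 3.60 CPM in Cre− and at 2.03, 3.38 and 3.60 CPM in Cre+ cultures (log2 fold change 0.10, SE 0.25, edgeR adjusted p = 0.888). The 95% interval of Cd80 ran from −0.43 to 0.63. The FPKM ratio of Cd86 to Cd80 was 11.8, 17.1 and 9.36 in Cre− and 10.7, 7.64 and 6.74 in Cre+ cultures, so the groups overlapped (exact two-sided permutation test, p = 0.2), and a difference in response between the genes was not shown.

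Cd274, the PD-1 ligand PD-L1, was at 59.2 ± 3.68 and 60.1 ± 3.79 CPM, with a 95% interval of −0.11 to 0.16 on the log2 scale. Cd40, the receptor for CD40 ligand, had 6, 17 and 10 counts in Cre− and 1, 28 and 7 counts in Cre+ libraries, too few for the fit (exact two-sided permutation test, p = 0.9). With a Cd86 call and 2 further tested genes, the costimulatory group had a median log2 fold change of 0.02.

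Of the genes that present other ligands, Cd1d1, which presents lipids to NKT cells, was at 13.6, 13.1 and 12.7 CPM in Cre− and at 12.1, 11.7 and 12.5 CPM in Cre+ cultures. Every Cre+ value lay below every Cre− value, with a log2 fold change of −0.12 (SE 0.09) that did not pass (edgeR adjusted p = 0.551). Mr1, which presents vitamin B metabolites to MAIT cells, was at 23.6 ± 3.17 and 24 ± 0.697 CPM. Irf8, a lineage factor of microglia and dendritic cells that also acts at interferon-responsive genes, was at 198, 193 and 187 CPM in Cre− and at 176, 173 and 170 CPM in Cre+ cultures. These did not overlap, and the log2 fold change of −0.15 (SE 0.04) stood just outside the threshold (edgeR adjusted p = 0.0605), which DESeq2 placed inside. Irf1, an interferon-induced activator of class I and immunoproteasome genes, was at 22.8, 16.3 and 21.7 CPM in Cre− and at 22.3, 22.2 and 22.2 CPM in Cre+ cultures (log2 fold change 0.14, SE 0.10, edgeR adjusted p = 0.532).

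**Figure D4:**
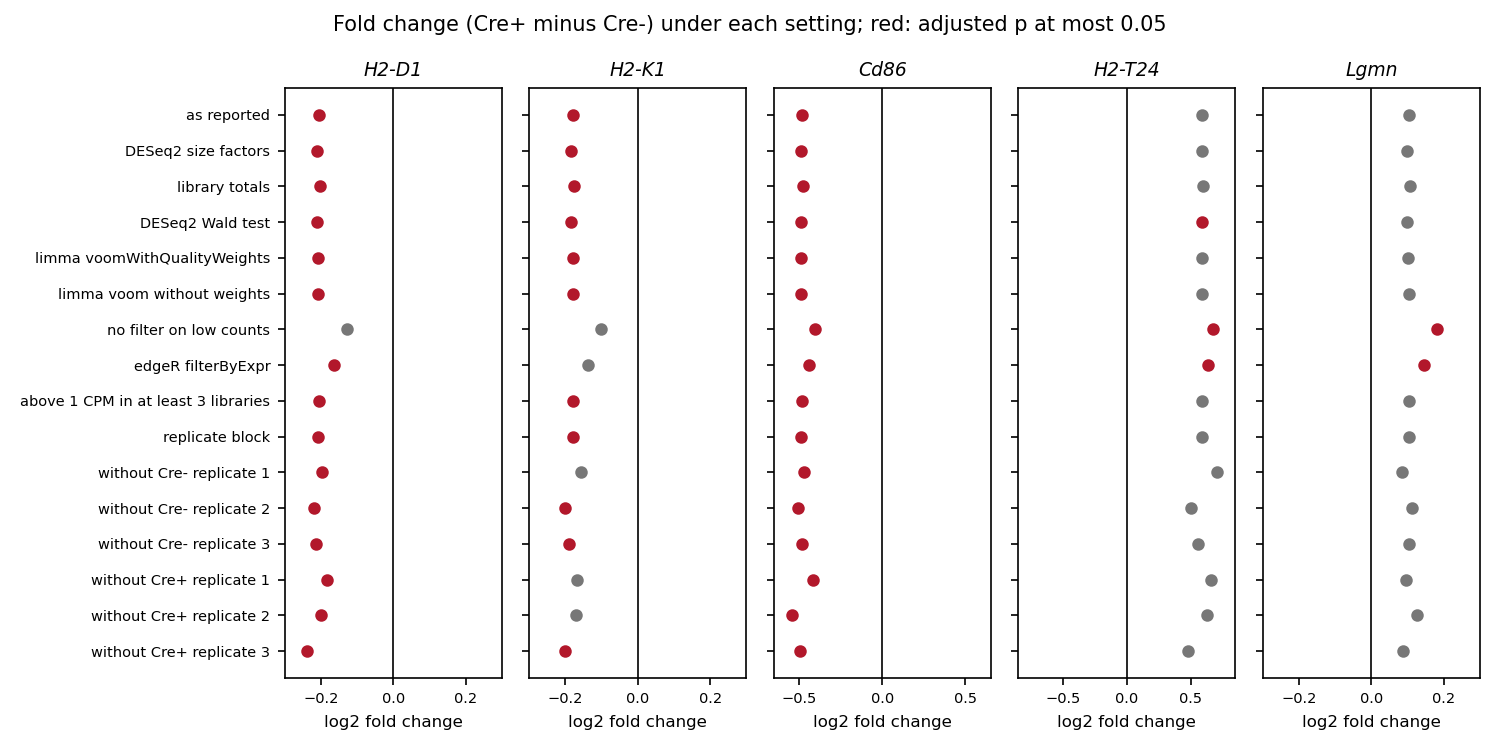
Log2 fold change (Cre+ minus Cre−) of 5 members under the reported fit and 15 other settings, one row each. Red marks an adjusted p of at most 0.05. Cd86 was called in 16 of 16 settings, H2-D1 in 15, H2-K1 in 11, H2-T24 in 3 and Lgmn in 2, and no fold change of these 5 changed sign.

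Genes of the same pathway outside the 40 were examined from a list of 110, of which 88 could be tested. Of these, 2 were higher and 2 lower in Cre+ cultures (4.55%), close to the 5.07% called among all tested genes. The number called fell to 1 without Cre− replicate 3 or Cre+ replicate 3 and to 2 without Cre+ replicate 1. Ctsb, a lysosomal cysteine protease, rose from 26280 to 28930 CPM on average (log2 fold change 0.14, SE 0.03, edgeR adjusted p = 0.0236). March1, a membrane ubiquitin ligase that removes class II molecules and CD86 from the cell surface, rose from 30.8 to 39.3 CPM (log2 fold change 0.35, SE 0.08, edgeR adjusted p = 0.019). Ctsh, another lysosomal cysteine protease, fell by 0.18 on the log2 scale (SE 0.04, edgeR adjusted p = 0.0204), and Cd47, a ligand that inhibits phagocytosis, fell by 0.20 (SE 0.05, edgeR adjusted p = 0.0217). There were no calls among 8 tested further MHC genes, 9 chaperones of the endoplasmic reticulum, 18 constitutive proteasome genes, 8 cytosolic peptidases and 22 genes of the MHC enhanceosome and interferon signalling.

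Of the members, 20 lie in the MHC on chromosome 17, between 33915899 and 37274484 (GRCm38), and 19 of these were tested. Of the 19, 14 had a fold change below 0 (73.7%), with a median of −0.04 on the log2 scale. Of the 76 other tested genes in the same interval, 52 had a fold change below 0 (68.4%) with a median of −0.09, against 52.5% of the 499 tested genes elsewhere on chromosome 17 and 49.4% of all tested genes. The 76 are not all unrelated to the members. They include H2-K2, H2-Q1, H2-Q2, H2-Q5, H2-Q10, H2-T10 and H2-T-ps, each with a fold change below 0. They also include Zbtb22, Gm11131 and Brd2, whose exons overlap those of members. In the interval H2-K1 and H2-D1 were called lower beside Ring1, a Polycomb ligase (log2 fold change −0.48), and Atf6b, a factor of the stress response of the endoplasmic reticulum (−0.29). C2, a complement component (0.88), and Tubb5, a tubulin (0.24), were called higher. These 4 neighbours were named after their values were seen. Fold changes below 0 thus outnumbered those above 0 among the members and among their neighbours.

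**Figure D5:**
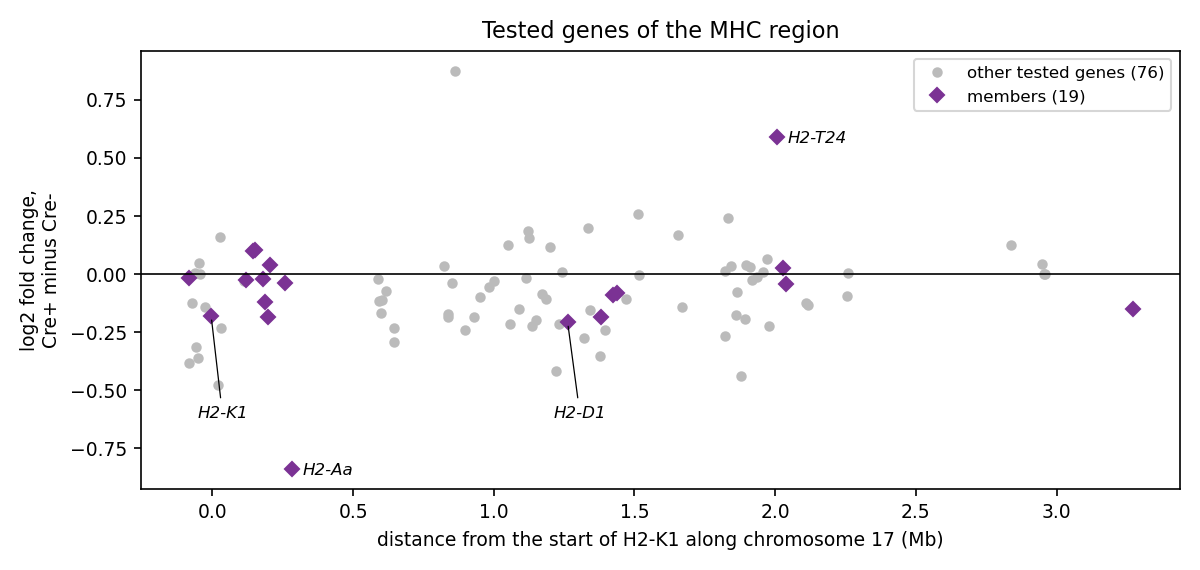
Log2 fold change (Cre+ minus Cre−) of the 95 tested genes between the outermost members on chromosome 17 against distance from the start of H2-K1 in megabases. Diamonds are the 19 tested members and grey circles the 76 other genes, and 14 of the members and 52 of the others lie below 0.

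Other cells that present antigen were looked for by their markers. The summed level of 10 microglial markers was 3300 to 3340 CPM in Cre− and 3300 to 3430 CPM in Cre+ cultures, with 1 of 9 tested markers higher (Itgam) and 0 lower. That of 10 dendritic cell markers was 7.87 to 9.27 and 8.18 to 8.53 CPM, with 2 of the 10 tested (Clec9a, Batf3) and Flt3 and Zbtb46 below the filter, and that of 6 B cell markers was 0.26 to 1.12 and 0.192 to 0.494 CPM. The 6 T and NK cell markers summed to 0.487 to 0.782 and 0.173 to 0.462 CPM, without overlap. Sums were also lower without overlap for neuronal markers (2.67 to 3.65 and 1.94 to 2.09 CPM) and for fibroblast and mural markers (1.36 to 2.21 and 0.833 to 1.07 CPM), all of them below the filter. Most genes of low level were lower in Cre+ cultures, 80.7% between 0.05 and 0.2 CPM and 73.9% between 0.2 and 0.5 CPM. The lower sums thus have the direction of most low genes. Astrocyte markers (33.3 to 35.9 and 32.7 to 34.7 CPM) and oligodendrocyte lineage markers (73.4 to 83.4 and 70.5 to 75 CPM) overlapped. Endothelial markers were higher without overlap, at 20.8 to 22.8 and 24.3 to 27.9 CPM, mostly through Flt1 (log2 fold change 0.33, edgeR adjusted p = 0.0245). The 8 markers of monocytes and border macrophages summed to 63.1 to 64.9 CPM in Cre− and 75.9 to 92.1 CPM in Cre+ cultures, without overlap. This sum is mostly Mrc1, which rose (log2 fold change 0.47, edgeR adjusted p = 0.000669), while Pf4 fell by 0.79 (edgeR adjusted p = 0.00956), and Lyve1, Cd163 and F13a1 were below the filter. These marker sums moved in the same libraries as H2-K1, H2-D1 and Cd86, and their part in those results was not tested.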

How the data were processed

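RNA from 6 primary microglia cultures was sequenced by the authors on amplified cDNA without molecular identifiers, in a library type that keeps no strand. The counts, as deposited by the authors, are whole reads per Ensembl gene on GRCm38, and the submitters' processing notes name STAR 2.7.9a and featureCounts 2.0.3. The CPM deposited by the authors are counts divided by library totals, and the deposited FPKM are CPM divided by gene length. These were read only to check their unit, and every value here was computed from the counts.

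The 40 members and all lists were chosen with earlier results of these data known. Biotypes and exons came from GENCODE M21 (55227 of 55487 genes matched). After removal of 356 ribosomal RNA genes, genes with more than 1 CPM in 4 libraries or more went into edgeR 4.0.16 in R 4.3.3 (TMM, quasi-likelihood test, no covariates, Benjamini-Hochberg over 11429 genes, threshold 0.05), after a check on simulated counts. CPM and FPKM in the text use TMM-normalized library sizes. The study fitted limma voomWithQualityWeights, which was run as an alternative (limma 3.58.1), as were DESeq2 1.42.0, other scalings and filters, the replicate number as a block, and leaving out each library. The dispersion of 0.01 is a 10% coefficient of variation between cultures. Differences between libraries of a group exceeded counting noise (chi-square per degree of freedom 18.8 to 25.9), and no 2 libraries were counted as 1. Genes named are the 40 members, Nr1d1 and called pathway genes, with markers and called MHC neighbours added as context. Sequence words of 100 bases were compared between all transcripts.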

Additional observations from a re-analysis of the deposited data

How the results depend on the processing

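The calls of Cd86 (16 of 16 settings) and H2-D1 (15 of 16) were the most stable, and no setting turned the sign of H2-K1, H2-D1 or Cd86. The number of genes called rose from 579 to 886 with DESeq2 and to 1528 with no count filter, and was 823 with filterByExpr and 317 to 448 without 1 library. Members called numbered 6 with DESeq2 (1 higher, 5 lower: H2-T24, Psmb8 and Irf8 joined), 4 with no filter (3 higher: H2-T24, Erap1, Lgmn; 1 lower: Cd86), 4 with filterByExpr (2 higher, 2 lower) and 2 to 4 without 1 library. Both looser filters let in many low genes. Under these filters the median of the 11429 genes of the reported fit, without the genes let in, moved to 0.08 (no filter) and 0.05 (filterByExpr). Fold changes under them are to be read against that shift. The class I median was 0.0563 with no filter, 0.0205 with filterByExpr and −0.0572 to −0.0041 without 1 library. The class II median was 0.0523 with voomWithQualityWeights, 0.0926 with no filter, 0.0557 with filterByExpr and −0.0432 to 0.1064 without 1 library, and the costimulatory median −0.1207 to 0.0666. Nr1d1 ranged from −0.98 to −0.50 and passed only without Cre− replicate 2 (−0.98, adjusted p = 0.0414). Other pathway genes called numbered 7 with DESeq2, 14 with no filter and 1 to 3 without 1 library. The libraries whose absence lowered the number of genes called by over 1.5 times were Cre− replicate 3 (339), Cre+ replicate 2 (376) and Cre+ replicate 3 (317). The cause of the higher counts with DESeq2 was not tested.

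Members near 0 changed sign without a call. With no filter and with filterByExpr these were H2-T22 (0.0368, 0.0008), B2m (0.0764, 0.0407), Tapbp (0.0622, 0.0265), Psmb9 (0.0563, 0.0205), Psme1 (0.0637, 0.0277), H2-Ab1 (0.0445, 0.0067), H2-DMa (0.0518, 0.0163) and Ifi30 (0.0398, 0.0042). B2m was at 0.0031 with library totals, and H2-Ab1 at 0.0523 and 0.0377 with and without voom quality weights and 0.0171 with the replicate block. Without 1 library the ranges that cross 0 were Tap2 −0.0145 to 0.0852, H2-Ab1 −0.2926 to 0.3731, Mr1 −0.0421 to 0.1439, Tapbp −0.0572 to 0.0356, Cd74 −0.0555 to 0.1064, Cd80 −0.1207 to 0.3176, B2m −0.0284 to 0.0293, Psmb9 −0.0736 to 0.0091, H2-DMa −0.1024 to 0.0627, Cd274 −0.0147 to 0.0751 and H2-Q6 −0.2092 to 0.0493.

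The labels do not say whether replicate numbers pair the libraries. Deviations from the group means correlated at 0.00667, −0.0334 and −0.0556 between same-numbered libraries, and not every library correlated best with its own number. With 3 libraries in each group these values cannot decide whether the numbers are pairs. With the number as a replicate block 430 genes and the same 3 members were called. A member below about 3 CPM had a standard error of 0.18 to 0.31, so a change like that of H2-D1 was not detectable there at this depth.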
